A study of Rattus norvegicus with 6 samples.

Results

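Thyroid hormone signalling was followed in the newborn rat brain through 8 genes, taken by name from the gene tables: the transporter gene Slco1c1, the deiodinase genes Dio2 and Dio3, the hormone-binding protein gene Crym, the receptor genes Thra and Thrb, and the hormone-responsive genes Hr and Itih3. Each name matched 1 of 30498 Ensembl genes, so all 8 members were found. The libraries were polyadenylated RNA from rat (Rattus norvegicus) brain, 3 from pups of control dams and 3 from pups of dams on caloric restriction (CR), a diet that produces fetal growth restriction. Pups of both groups were delivered surgically and the brain was dissected straight away. The labels name no strain, sex, litter or degree of restriction, and do not say whether a library is 1 pup or a pool. Nothing there ties the 3 libraries of a group to separate litters. The p-values therefore measure only how far these libraries spread, which may be partly technical and need not be how far litters spread.

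Thyroid hormone reaches the brain mostly as the prohormone T4, which crosses the blood-brain barrier through carriers such as the organic anion transporter encoded by Slco1c1. Type 2 deiodinase (Dio2), found in astrocytes and tanycytes, turns T4 into active T3, and type 3 deiodinase (Dio3), found in neurons, inactivates both. T3 then binds nuclear receptors encoded by Thra and Thrb, which pair with retinoid X receptors on target genes and control the timing of neuron migration, myelination and cerebellar growth.

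Levels are FPKM, fragments scaled to exon length and to the reads assigned in the library, so that they can be compared between genes of different length. Between 14030961 and 25734737 reads were assigned to genes per library. Differences were tested with limma on log2(FPKM + 1) over 15247 genes whose mean FPKM reached 0.5. A log2 fold change is the CR mean less the control mean on that scale, where changes of low genes come out smaller than they are, and a gene passed at a Benjamini-Hochberg adjusted p under 0.05.

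All libraries carry the label whole brain, but the control libraries had almost no RNA of midbrain and more caudal regions. Over 12 markers of midbrain, hindbrain and cerebellum the summed level was 0.832 to 1.54 FPKM in control and 39.3 to 66.4 FPKM in CR, and Hoxb3 and Hoxb5 had no read in any control library. The 4 thalamic markers summed to 3.23 to 19.5 FPKM in control, lowest in replicate 1, and to 74.3 to 109.6 FPKM in CR. The 9 hypothalamic markers overlapped in their sum, at 166 to 275 FPKM in control and 173 to 187 FPKM in CR. Npy, which cortical interneurons also make, held most of it and was lower in CR, at 222 ± 56.6 and 129 ± 13.3 FPKM (limma adjusted p = 0.0164), and the other 8, summed after the Npy values were seen, came to 6.29 to 7.34 FPKM in control and 40.2 to 59.2 FPKM in CR. The 10 dorsal telencephalic markers went the other way, at 506 to 627 FPKM in control and 186 to 291 FPKM in CR, and the 10 ventral ones were at 132 to 168 and 85.8 to 95.8 FPKM. Astrocyte markers summed to 201 to 243 FPKM in control and 348 to 386 FPKM in CR, with 9 of 10 not overlapping and higher in CR, against 26.1% of tested genes. Aldoc held the largest part of that sum, at 116 ± 5.62 and 187 ± 8.84 FPKM. Endothelial markers overlapped between groups, at 18.7 to 20.6 and 18.7 to 22.2 FPKM. Choroid plexus markers (1155 to 2779 FPKM in control, 2190.2 to 2763 FPKM in CR) and meningeal markers (51.5 to 101.1 and 93.4 to 113 FPKM) overlapped in their sums too. Ttr held nearly all of the choroid plexus sum, at 1834 ± 817 and 2351 ± 319 FPKM. Of that list only Otx2 did not overlap, and it was higher in CR, at 2.87 ± 0.891 and 10.3 ± 3.52 FPKM (limma adjusted p = 0.00306). CR replicate 3 stood apart in Hox genes, where it had 14.4 FPKM of Hoxb5 and CR replicates 1 and 2 had 0.559 and 0.405 FPKM. Y-linked RNA was present in control replicate 3 and CR replicates 1 and 3. Feeding and the regional makeup of the libraries differ between the same 6 samples and cannot be told apart in any result below. In bulk RNA, fewer cells of a type and less RNA per cell cannot be told apart either.

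**Figure D1:**
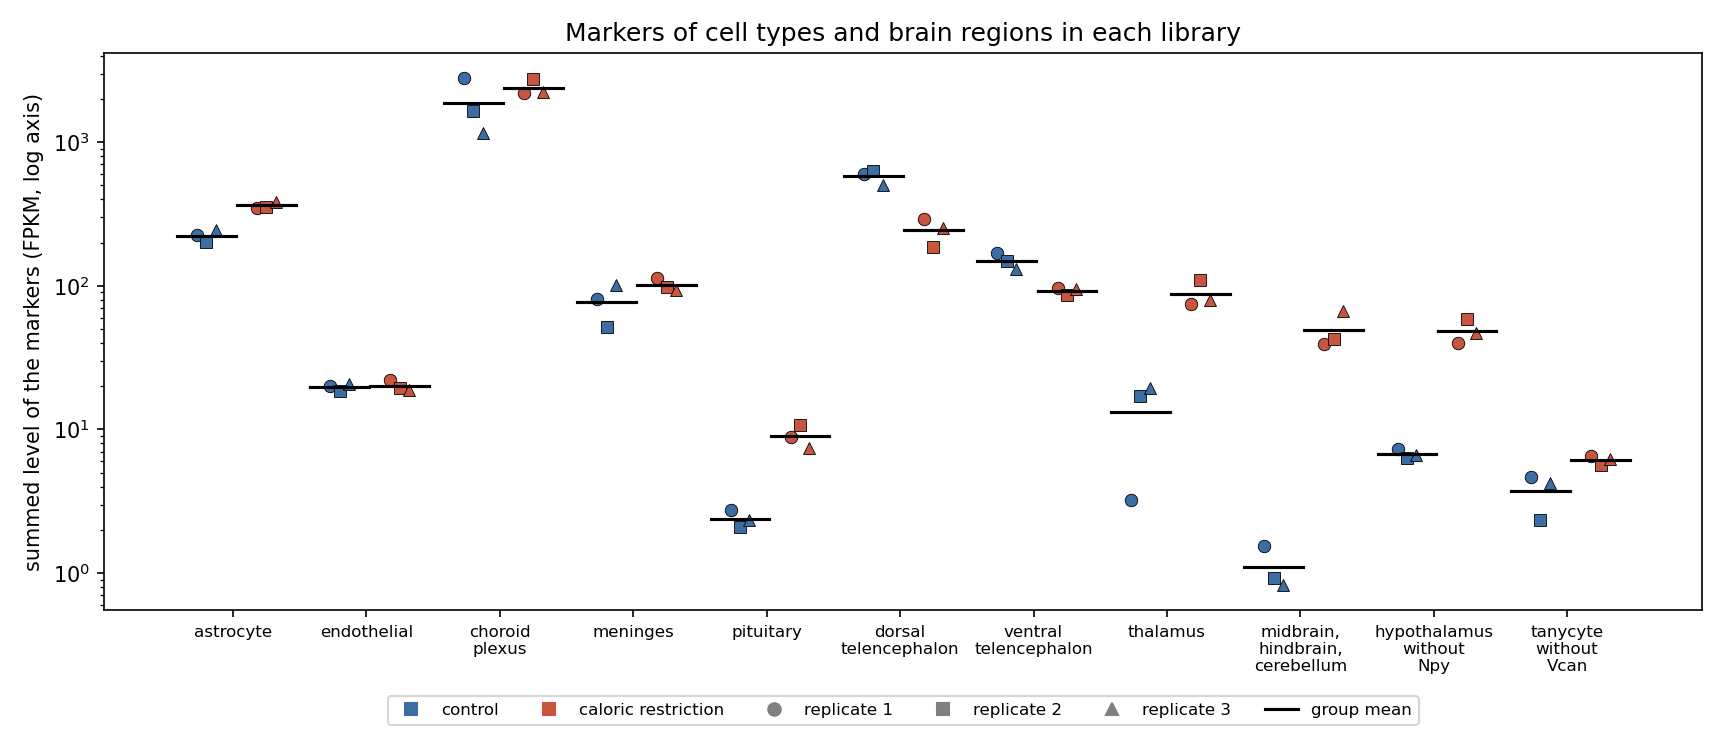
Summed level in FPKM (log axis) of markers of each cell type or brain region in each library, blue for control and red for CR, with replicate number as symbol and group mean as a line. Markers of midbrain, hindbrain and cerebellum lie at 0.832 to 1.54 FPKM in control and 39.3 to 66.4 FPKM in CR, dorsal telencephalic markers at 506 to 627 and 186 to 291 FPKM, and endothelial markers overlap. The hypothalamic and tanycyte sums plotted leave out Npy and Vcan, which were lower in CR; with them the sums were 166 to 275 and 173 to 187 FPKM, and 23.7 to 26.6 and 20.3 to 21.8 FPKM.

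Of the 8 genes, 6 fell in CR (Slco1c1, Dio2, Crym, Thra, Thrb and Hr), 1 rose (Itih3) and Dio3 did not pass. Over all tested genes limma called 33.9% in either direction, 16.2% as lower and 17.7% as higher, and the counts of members are to be read against those shares. The same 6 genes had all 3 CR values below all 3 control values, against 24.3% of tested genes, and Itih3 had them above, against 26.1%. The median log2 fold change of the 8 was -0.36, beside 0.0096 over all tested genes. All 8 passed the filter on low values. Every member kept its direction under each alternative in which it was tested, of scaling, pseudocount, filter, model and left-out library. Leaving out CR replicate 1 or CR replicate 3 left 6 of the 8 past the threshold, the loss being Thrb each time, and all 7 passed when any other single library was left out.

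**Figure D2:**
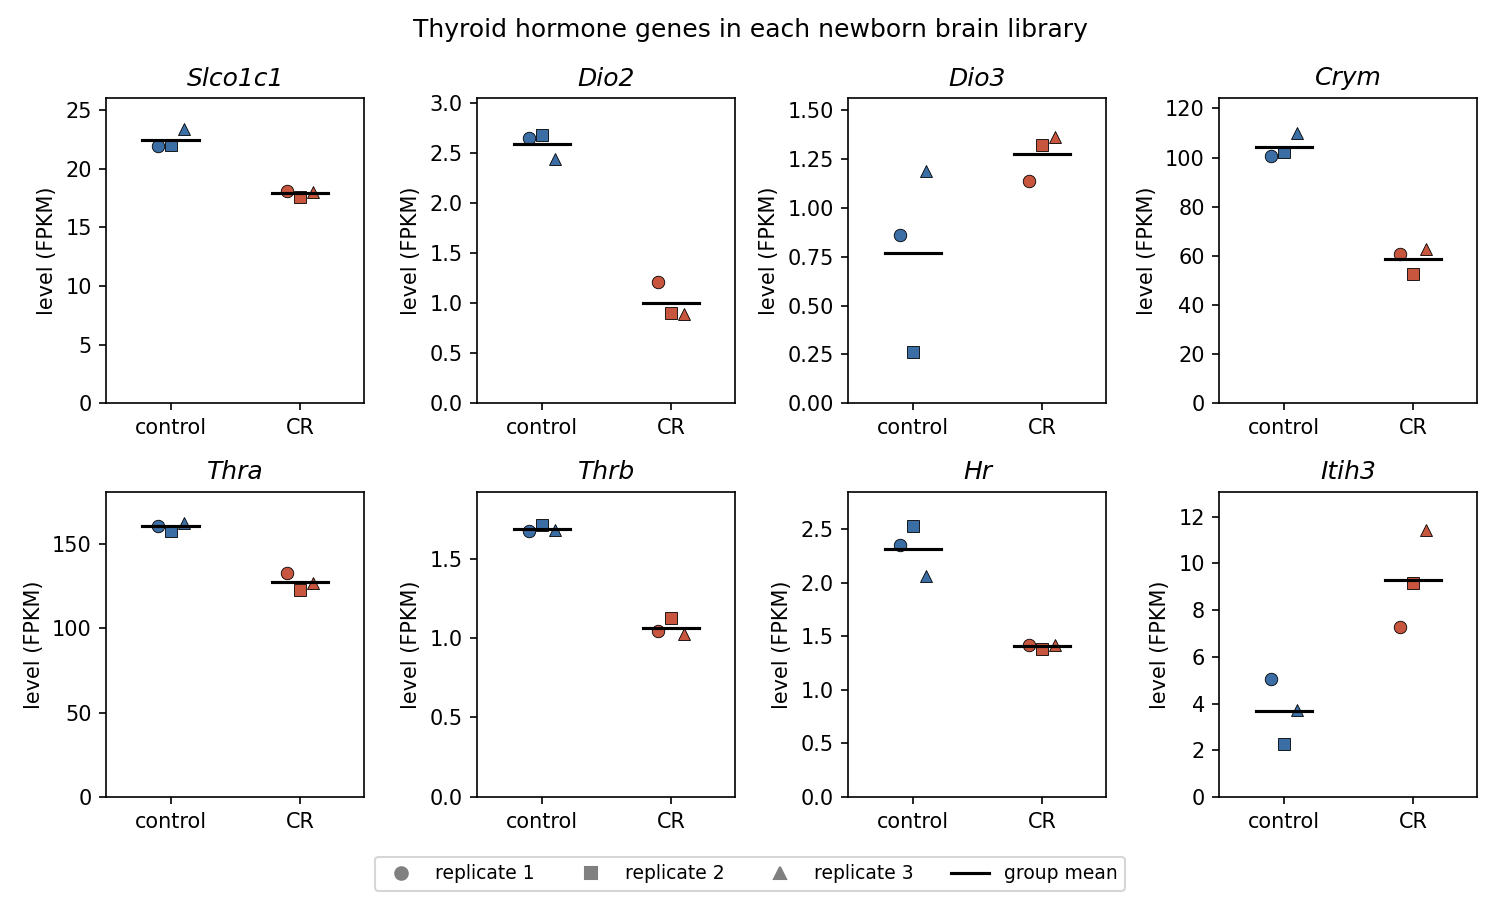
Level in FPKM of each of the 8 genes in the 3 control (blue) and 3 CR (red) libraries, with replicate number as symbol, group mean as a line and each axis starting at 0. Groups do not overlap in 7 genes. In Dio3 control replicate 3 (1.19 FPKM) lies above CR replicate 1 (1.14 FPKM).

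**Figure D3:**
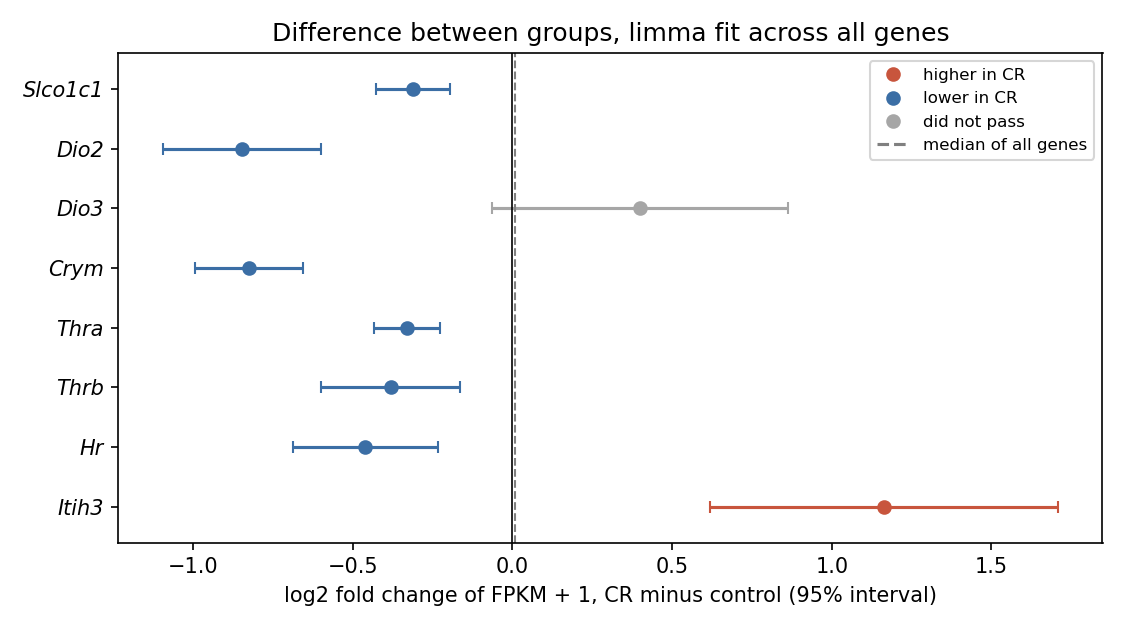
Log2 fold change of FPKM + 1, CR minus control, of each gene with its 95% interval from the limma fit over all genes; the dashed line is the median of all tested genes. Dio2 (-0.85) and Crym (-0.83) lie farthest below 0, Itih3 (1.16) lies above it, and the interval of Dio3 crosses it.

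The promoters of the members for which RefSeq windows were at hand differ in kind, and are shown here for the deiodinases, the receptors and Itih3. Sequences are from RefSeq on GRCr8, another build than that of the gene tables (mRatBN7.2), and each is the 250 bases before an annotated start, 5′ to 3′ on the gene's strand, with TATAAA and GGGCGG matches on either strand in capitals. Windows matched 5 of the 8 members, and Slco1c1, Hr and Crym are named only. Dio2 lies at chr6:115410595-115410844 (minus strand), Dio3 at chr6:135106822-135107071 (plus), Thra at chr10:84197891-84198140 (plus, the first of 2 windows), Thrb at chr15:10461447-10461696 (minus) and Itih3 at chr16:6123375-6123624 (minus).
Dio2: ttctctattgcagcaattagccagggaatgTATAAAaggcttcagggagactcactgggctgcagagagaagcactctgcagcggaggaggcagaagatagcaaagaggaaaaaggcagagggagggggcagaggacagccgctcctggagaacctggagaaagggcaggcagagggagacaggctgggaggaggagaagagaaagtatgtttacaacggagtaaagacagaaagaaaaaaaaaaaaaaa
Dio3: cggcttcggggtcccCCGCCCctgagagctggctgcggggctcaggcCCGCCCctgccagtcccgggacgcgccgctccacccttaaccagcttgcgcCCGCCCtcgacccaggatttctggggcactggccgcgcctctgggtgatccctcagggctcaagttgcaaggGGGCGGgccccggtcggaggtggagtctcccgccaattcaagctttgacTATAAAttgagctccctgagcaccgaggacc
Thra: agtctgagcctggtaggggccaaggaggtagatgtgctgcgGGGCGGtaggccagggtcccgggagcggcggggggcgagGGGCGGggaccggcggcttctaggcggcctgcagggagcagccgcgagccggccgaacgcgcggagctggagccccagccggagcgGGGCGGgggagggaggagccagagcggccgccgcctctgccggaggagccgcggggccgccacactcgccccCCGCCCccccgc
Thrb: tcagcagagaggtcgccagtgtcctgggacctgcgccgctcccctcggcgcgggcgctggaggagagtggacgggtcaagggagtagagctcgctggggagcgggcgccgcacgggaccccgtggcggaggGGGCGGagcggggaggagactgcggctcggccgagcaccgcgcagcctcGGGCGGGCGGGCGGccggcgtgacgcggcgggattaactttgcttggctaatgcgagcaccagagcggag
Itih3: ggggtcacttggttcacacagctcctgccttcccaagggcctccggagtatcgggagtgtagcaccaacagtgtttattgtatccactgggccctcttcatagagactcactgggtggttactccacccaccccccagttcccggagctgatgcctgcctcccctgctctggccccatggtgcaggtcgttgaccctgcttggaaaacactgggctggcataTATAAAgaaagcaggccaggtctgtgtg
The Thra and Thrb windows shown held 79.6% and 74% G and C, with 4 GGGCGG matches each and no TATAAA. In Thrb, 3 of the 4 overlap. The second Thra window, which is not shown, held 44.8% G and C and no match to GGGCGG or TATAAA. Across all 33469 windows the median GC content was 51.2%. Dio3 had 4 GGGCGG matches, 68.8% G and C and a TATAAA from 31 to 26 bases before the start. Itih3 had a TATAAA from 28 to 23 bases before its start and 57.6% G and C, and Dio2 had one from 220 to 215 bases before its start and 49.6%. Of all windows, 12.9% held TATAAA and 30.5% held GGGCGG on either strand. The receptor hexamer AGGTCA was in none of these windows and in 14.1% of all windows. Its direct repeat with a spacer of 4 bases (DR4), which contains the hexamer, was in none of them and in 0.00299% of all. CCAAT matched once, in Dio3, against 34% of all windows, and the cyclic AMP element TGACGTCA, in 1.59% of all windows, matched in none. No match says only that these letters are not in these bases.

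Slco1c1 encodes a high-affinity T4 carrier of brain capillaries and astrocytes. The gene (ENSRNOG00000009740, chromosome 4, 174466631 to 174513289, plus strand, mRatBN7.2) had FPKM of 22.0, 22.1 and 23.4 in control replicates 1 to 3 against 18.1, 17.6 and 18.1 in the CR replicates in that order, from 839 to 1520 reads. The 3 CR libraries lay close together, all below control. The group means were 22.5 ± 0.788 and 17.9 ± 0.310 FPKM (SD, n = 3), 1.25-fold lower in CR, with a log2 fold change of -0.31 (SE 0.0502, limma adjusted p = 0.00376). Of 8 listed endothelial markers, 5 had values, and Cldn5, Flt1 and Ocln were not found by name. The 5 summed to 18.7 to 20.6 FPKM in control and 18.7 to 22.2 FPKM in CR, with overlapping groups. Astrocyte markers had a higher sum in CR. The part of cell type content in the difference was not tested.

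Dio2, the activating deiodinase, had the lowest log2 fold change of the 8, with an interval that overlaps that of Crym. It lies on chromosome 6 from 109665523 to 109679809 (ENSRNOG00000062383, minus strand). Control replicates 1 to 3 had 2.65, 2.68 and 2.44 FPKM and CR replicates 1 to 3 had 1.21, 0.901 and 0.890 FPKM, from 144 to 428 reads. CR replicate 1 was the highest of its group and still well under the lowest control library. Means were 2.59 ± 0.132 and 1.00 ± 0.182 FPKM, 2.59-fold lower in CR, and the log2 fold change was -0.85 (95% interval -1.09 to -0.60, limma adjusted p = 0.00167). With a pseudocount of 0.1 it was -1.30, and with limma-voom on reads worked out from the FPKM it was -1.40 (adjusted p = 8.82e-05). The 10 astrocyte markers, from a cell type in which Dio2 is made, had a sum 1.62-fold higher in CR. The largest ratios of means were those of S100b (9.78 ± 3.07 and 44.7 ± 6.23 FPKM) and Aqp4, a water channel gene (5.92 ± 1.62 and 14.7 ± 1.74 FPKM). The smallest was that of Slc1a3, at 52.2 ± 5.06 and 55.9 ± 1.33 FPKM with overlapping groups. The 6 tanycyte markers summed to 23.7 to 26.6 FPKM in control and 20.3 to 21.8 FPKM in CR. Vcan, which other cells also make, held most of that sum and was lower in CR, at 21.4 ± 1.84 and 15.1 ± 0.402 FPKM (limma adjusted p = 0.00276). Without Vcan, left out after its values were seen, the sum turned to 2.34 to 4.68 FPKM in control and 5.67 to 6.51 FPKM in CR, and the defining gene Rax had no read in control and 1 to 7 reads in CR. The part of these cell types in the Dio2 difference was not tested.

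Dio3, the inactivating deiodinase, did not pass. The gene is on chromosome 6 from 129285749 to 129286660 (ENSRNOG00000052017, plus strand), with 912 nt of exon. Its FPKM were 0.860, 0.260 and 1.19 in control replicates 1 to 3, against 1.14, 1.32 and 1.37 in CR replicates 1 to 3. Control replicate 2 was low and control replicate 3 lay within the CR range, so the groups overlapped. These values rest on 11, 6 and 20 reads in control and 23, 31 and 32 reads in CR, and the exact Poisson 95% interval of control replicate 2 alone ran from 0.0953 to 0.565 FPKM (counting error only). The log2 fold change was 0.40 (95% interval -0.07 to 0.86, limma adjusted p = 0.160), an interval that holds 0. Without control replicate 2 it was 0.17 (adjusted p = 0.364), with a pseudocount of 0.1 it was 0.84 and with limma-voom 1.08 (adjusted p = 0.0978).

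The balance of both deiodinase mRNAs was read as the ratio of Dio3 to Dio2 FPKM within a library. It was 0.325, 0.0968 and 0.488 in control replicates 1 to 3 and 0.940, 1.47 and 1.54 in CR replicates 1 to 3. Dio2 was the more abundant of the pair in every control library, and Dio3 in CR replicates 2 and 3. Means were 0.303 ± 0.197 and 1.31 ± 0.326. The groups did not overlap, and the numerator carries the counting error given for Dio3; the ratio was formed after both levels had been seen and was not tested.

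**Figure D4:**
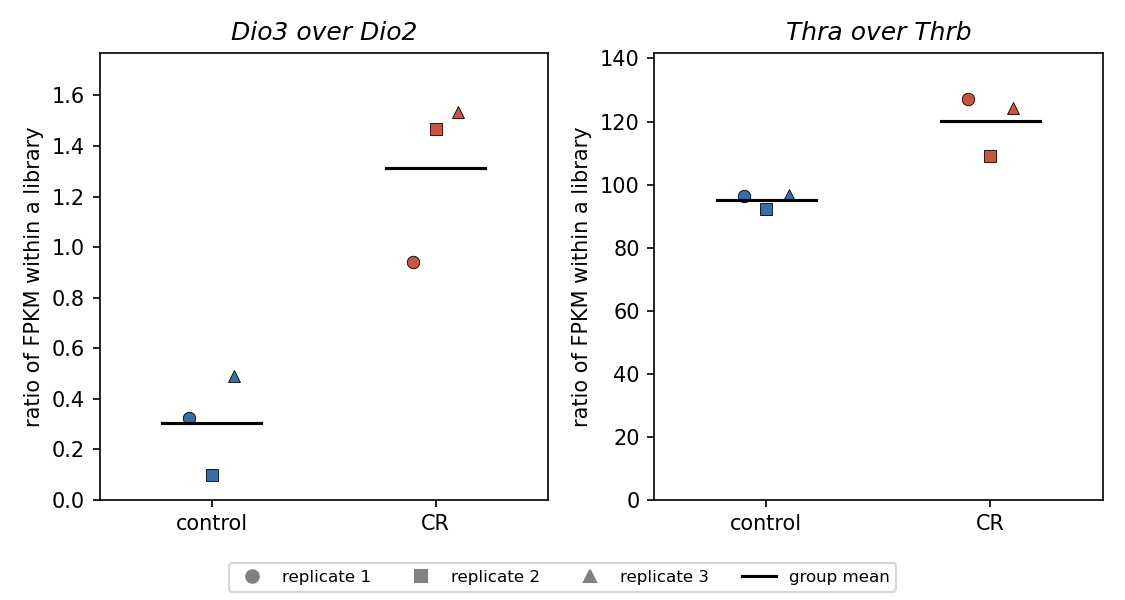
Ratio of FPKM within each library for Dio3 over Dio2 (left) and Thra over Thrb (right), with replicate number as symbol and group mean as a line. The Dio3 to Dio2 ratio is 0.0968 to 0.488 in control and 0.940 to 1.54 in CR, and the Thra to Thrb ratio 92.2 to 96.7 and 109 to 127.

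Crym encodes mu-crystallin, a cytosolic protein that binds T3. Its place is chromosome 1 from 174560416 to 174575633 (ENSRNOG00000061215, minus strand), and it was the second most abundant of the 8 after Thra. Its FPKM were 101, 102 and 110.1 in control replicates 1 to 3, against 60.5, 52.4 and 62.7 in CR replicates 1 to 3, from 1847 to 3563 reads. All CR libraries lay far below control, with CR replicate 2 lowest. Means were 104 ± 5.06 and 58.5 ± 5.42 FPKM, 1.78-fold lower in CR (log2 fold change -0.83, SE 0.0731, limma adjusted p = 0.000577). Summed dorsal telencephalic markers were lower in the same group, at 506 to 627 FPKM in control and 186 to 291 FPKM in CR. The ventral sum was lower too, at 132 to 168 and 85.8 to 95.8 FPKM. The part of that makeup in the Crym level was not tested.

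Thra, the receptor gene that predominates in fetal brain, also encodes a splice form that does not bind T3. It maps to chromosome 10 from 83700755 to 83729936 (ENSRNOG00000009066, plus strand). Its FPKM were 161, 158 and 163 in control replicates 1 to 3, against 133, 123 and 127 in CR replicates 1 to 3, from 8670 to 15353 reads. Replicates of a group differed by little, and the groups were well apart. Means were 160.5 ± 2.45 and 128 ± 5.09 FPKM, 1.26-fold lower in CR (log2 fold change -0.33, SE 0.0445, limma adjusted p = 0.00208). The gene shares 1094 exon bases with Nr1d1, a clock gene on the opposite strand, at 4.57 ± 0.414 and 4.14 ± 0.930 FPKM (adjusted p = 0.492). The strand setting of the read counting is not stated in the labels. Gene-level values do not separate the splice forms.

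Thrb, the receptor gene that rises later and matters for hearing, vision and hormone feedback, was far lower. The gene maps to chromosome 15 from 7685180 to 7882916 (ENSRNOG00000006649, minus strand). Its FPKM were 1.67, 1.71 and 1.68 in control replicates 1 to 3, against 1.05, 1.12 and 1.02 in CR replicates 1 to 3, from 157 to 294 reads. Control values were nearly alike and lay above all CR values. Means were 1.69 ± 0.0207 and 1.06 ± 0.0532 FPKM, 1.59-fold lower in CR (log2 fold change -0.38, SE 0.0933, limma adjusted p = 0.0177). Without CR replicate 3 the adjusted p was 0.0654, and it also missed the threshold without CR replicate 1 (0.0519) and with the replicate number as a block (0.0520). On the reads, limma-voom gave -0.67 (0.00174) and a pseudocount of 0.1 gave -0.62.

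Thra was 92.2 to 96.7 times as high as Thrb per length in control libraries and 109 to 127 times in CR libraries. Both receptor mRNAs were lower in CR, Thrb by the larger ratio of means, and the difference between their changes was not tested.

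Hr encodes hairless, a corepressor that binds thyroid hormone receptors and is itself a direct T3 target in rat brain. The locus is on chromosome 15 from 45626835 to 45646313 (ENSRNOG00000011427, plus strand). Its FPKM were 2.35, 2.53 and 2.07 in control replicates 1 to 3, against 1.42, 1.39 and 1.42 in CR replicates 1 to 3, from 191 to 391 reads. The CR libraries were nearly alike, while control spread more. Means were 2.32 ± 0.235 and 1.41 ± 0.0188 FPKM, 1.65-fold lower in CR (log2 fold change -0.46, SE 0.0979, limma adjusted p = 0.0105), and limma-voom gave -0.72 (adjusted p = 0.00128).

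Itih3, the 1 member that rose, encodes a heavy chain of the inter-alpha-trypsin inhibitors, which bind hyaluronan in the extracellular matrix. It sits on chromosome 16 from 6101930 to 6116924 (ENSRNOG00000017689, minus strand). Its FPKM were 5.04, 2.25 and 3.74 in control replicates 1 to 3, against 7.29, 9.16 and 11.4 in CR replicates 1 to 3, from 163 to 838 reads. Both groups spread widely, yet the lowest CR library lay above the highest control library. Means were 3.68 ± 1.40 and 9.29 ± 2.07 FPKM, 2.52-fold higher in CR (log2 fold change 1.16, 95% interval 0.62 to 1.71, limma adjusted p = 0.00862). In the same libraries 9 of 10 astrocyte markers were higher without overlap, against 26.1% of tested genes, and 8 of them passed with limma. The part of astrocyte content was not tested.

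Ordered by control level per length, the genes ran Thra, Crym, Slco1c1, Itih3, Dio2, Hr, Thrb, Dio3. Values of Itih3 and Dio2 overlapped between neighbours there, as did those of Dio2 and Hr. In CR the first 4 places were the same and Hr, Dio3, Thrb and Dio2 followed, so Dio2 moved from the fifth place to the last. In CR only Thrb and Dio2 overlapped among neighbours. Replicates varied least for Thrb in control (coefficient of variation 1.22%) and Hr in CR (1.34%) and most for Dio3 (61.3%) and Itih3 (37.9%) in control. Dio3 had 6 to 32 reads in a library and Itih3 at least 163.

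Genes whose profile over the 6 libraries was closest to a member were found by the Euclidean distance between log2(FPKM + 1) values centred on each gene's mean, among 11582 genes whose mean FPKM reached 1. The points share libraries and depth, so likeness is a description. Nearest to Dio2 were Fam107b (distance 0.156) and Sh3rf3 (0.159), and nearest to Crym were Trim36 (0.103) and Sinhcaf (0.136). For Thra they were Reln, itself on the list of other targets (0.0497), and Rnf41 (0.0513), and for Thrb they were Zmym2 (0.0526) and Ranbp2 (0.0543). Slco1c1 was nearest to Wtap (0.0358) and Cbll1 (0.0436), and Hr to the proteoglycan gene Vcan (0.0479) and to Sema4c (0.0630). No gene came as close to Itih3: its nearest were Shisal2b (0.440) and Apoe (0.442), the astrocyte apolipoprotein gene, at 159.5 FPKM in control and 314 FPKM in CR.

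Around the 8 members, 51 other genes of the pathway were listed, of which 48 were in the tables and 45 were tested. Limma called 14 as higher (31.1%) and 11 as lower (24.4%), against 17.7% and 16.2% of all tested genes, and the median log2 fold change of the tested genes in these lists was -0.0095. Aldh1a1, Tshb, Cga and Trhr, all called higher, passed the filter on low values only through CR. The count past the threshold in either direction was 25 with all libraries, 16 without CR replicate 2 and 21 without CR replicate 3.

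**Figure D5:**
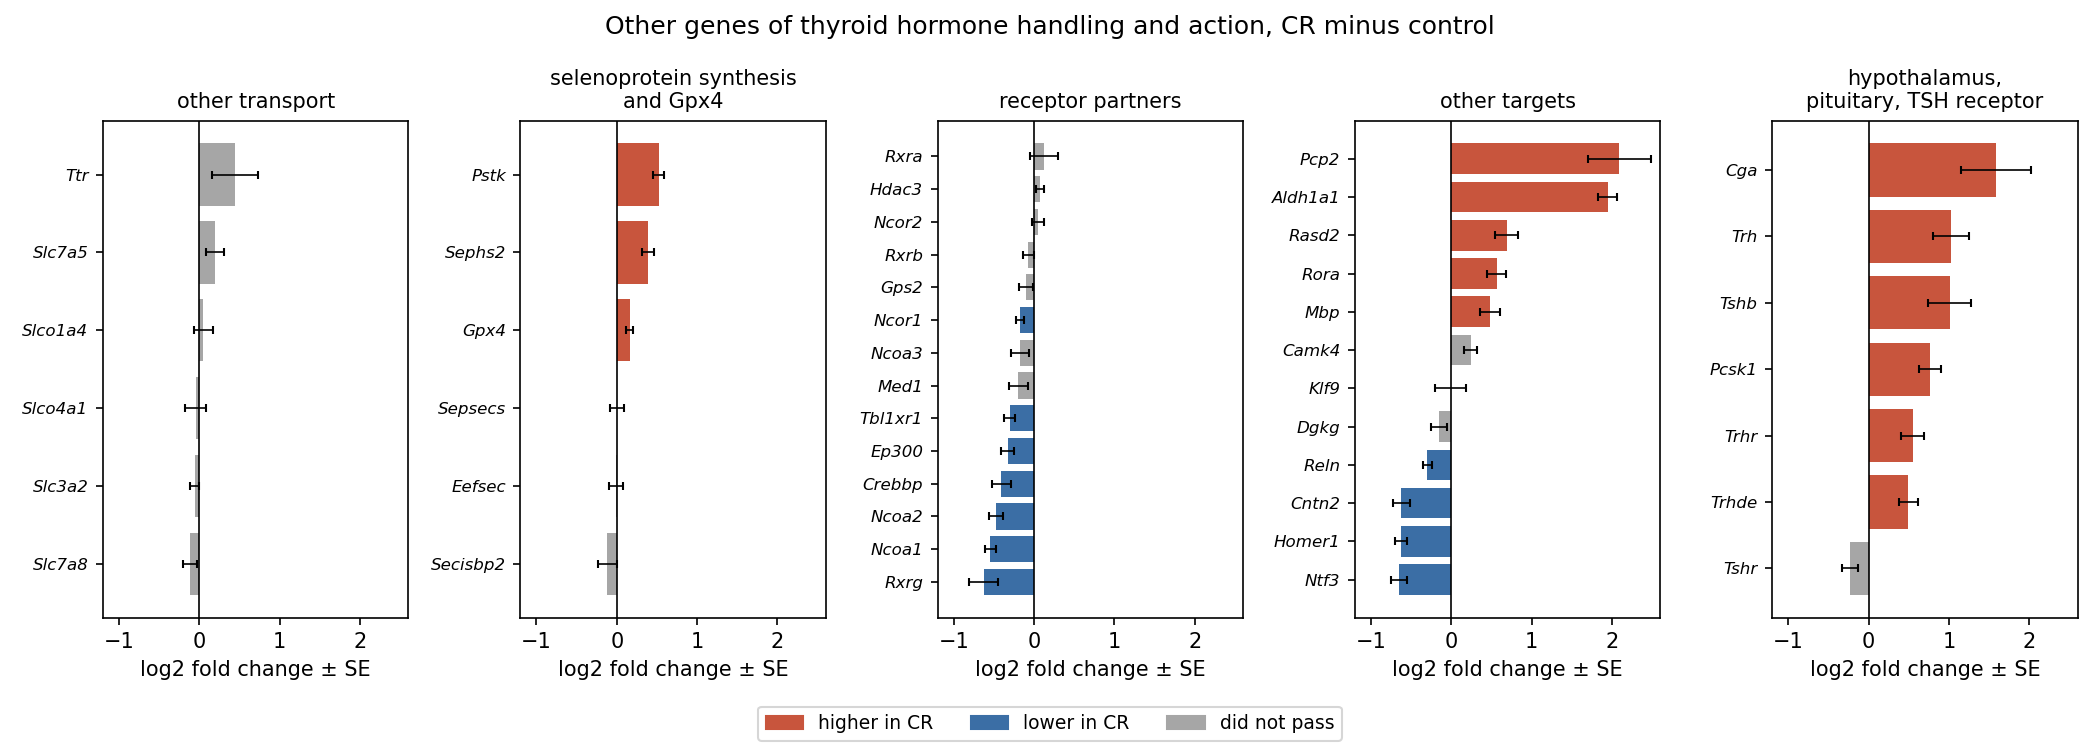
Log2 fold change, CR minus control, with its SE for 45 other genes of thyroid hormone handling and action, in 5 lists; red bars passed as higher, blue as lower and grey did not pass. In the receptor partner list 7 of 14 are lower (3 without CR replicate 1 or CR replicate 2) and none higher, and in the list of hypothalamus, pituitary and TSH receptor genes 6 of 7 are higher (2 without CR replicate 2). Of all tested genes 16.2% passed as lower and 17.7% as higher. Tshb, Cga, Trhr and Aldh1a1 passed the filter on low values only through CR.

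Of 6 other transport genes none passed with limma, beside 33.9% of all tested genes, and likewise none at an unadjusted p under 0.05 or with limma-voom. So few genes do not show that transport was spared. Ttr, the T4 carrier made by choroid plexus, had FPKM of 2734, 1630.2 and 1137 in control replicates 1 to 3 against 2155, 2719 and 2179 in the CR replicates in that order (log2 fold change 0.44, limma adjusted p = 0.260). Its level overlapped between groups and was highest in control replicate 1, without which the log2 fold change was 0.78 (adjusted p = 0.0198). Slc7a5, an amino acid and hormone transporter, was at 23.1 ± 4.04 and 26.3 ± 0.312 FPKM (adjusted p = 0.223).

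Deiodinases contain selenocysteine, and 6 genes of selenoprotein synthesis and use were tested, of which 3 rose and none fell (also none at an unadjusted p under 0.05 or with limma-voom). Over all tested genes 17.7% rose and 16.2% fell. Pstk, which phosphorylates the selenocysteine transfer RNA, rose from 14.4 ± 1.23 to 21.0 ± 0.665 FPKM (limma adjusted p = 0.00206), and Sephs2, which makes the selenium donor, from 15.6 ± 1.46 to 20.7 ± 0.527 FPKM (0.00642). Gpx4, a selenoenzyme against lipid peroxidation, went from 161 ± 0.866 to 180.1 ± 9.20 FPKM (0.0356). The Gpx4 call was lost with median-ratio scaling (0.114), quantile normalization (0.183), no filter on low values (0.0553), no trend (0.0904) and the replicate block (0.0566). It was lost too without any 1 of the control libraries (0.0645 to 0.0792), without CR replicate 2 (0.120) and without CR replicate 3 (0.0858). Dio1, the deiodinase of liver and kidney, was under the filter at 0 to 0.0520 FPKM.

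Among 14 receptor partners, 7 fell and none rose (also none at an unadjusted p under 0.05 or with limma-voom), with a median log2 fold change of -0.19. Of all tested genes, 16.2% were called lower and 17.7% higher. The coactivator gene Ncoa1 fell from 27.1 ± 1.82 to 18.3 ± 1.19 FPKM (limma adjusted p = 0.00174) and Ncoa2 from 7.64 ± 0.685 to 5.21 ± 0.362 FPKM (0.00626). The acetyltransferase genes Crebbp (10.8 ± 1.78 and 7.82 ± 0.883 FPKM, 0.0346) and Ep300 (8.27 ± 0.625 and 6.38 ± 0.395 FPKM, 0.0179) fell as well. Rxrg, a retinoid X receptor gene of striatum, fell from 27.1 ± 7.13 to 16.8 ± 1.73 FPKM (0.0297), while Rxra (1.93 ± 0.617 and 2.15 ± 0.274 FPKM, 0.604) and Rxrb (7.67 ± 0.492 and 7.25 ± 0.293 FPKM, 0.492) did not pass. The Rxrg call was lost with no filter (0.0727) and without any 1 library other than control replicate 3 (0.0542 to 0.0909). Crebbp was lost with no filter (0.0732), without control replicate 1 (0.0560), control replicate 3 (0.0591), CR replicate 1 (0.0968) and CR replicate 2 (0.115), and Ep300 without CR replicate 1 (0.0600) and CR replicate 2 (0.0538). Ncor1, a corepressor gene named for its losses after its values were seen, was at 23.3 ± 0.416 and 20.6 ± 0.683 FPKM (0.0321) and was lost without any 1 library (0.0529 to 0.101), without the trend (0.0627), with the replicate block (0.0668) and with the Y-linked covariate (0.0578). The count of 7 was 3 without CR replicate 1 or CR replicate 2, 4 without control replicate 1, 5 without control replicate 2 or CR replicate 3 and 6 without control replicate 3.

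Other genes known to respond to T3 in brain went both ways, with 5 of 12 higher, 4 lower and 3 not past the threshold. The shares over all tested genes were 17.7% higher and 16.2% lower. Pcp2, a Purkinje cell gene, had FPKM of 1.18, 0.524 and 1.08 in control replicates 1 to 3 against 12.1, 9.04 and 3.10 in the CR replicates in that order (limma adjusted p = 0.00656). The Pcp2 groups did not overlap, and CR replicate 3 was well below the other CR libraries. Aldh1a1, a retinal dehydrogenase gene of midbrain dopamine neurons, rose from 0.308 ± 0.0223 to 4.06 ± 0.577 FPKM (0.000161). It passed the filter of 0.5 FPKM only through CR. In the same libraries Barhl1, of cerebellar precursors, was at 0.0298 to 0.113 FPKM in control and 7.02 to 8.80 FPKM in CR, and Th, of dopamine neurons, at 0.302 to 0.714 and 6.61 to 8.96 FPKM; the part of these regions was not tested. Rasd2, a striatal GTPase gene, rose from 1.87 ± 0.459 to 3.60 ± 0.480 FPKM (0.00947) while Ntf3, encoding neurotrophin-3, fell from 5.21 ± 0.452 to 2.94 ± 0.295 FPKM (0.00281) and Homer1, a postsynaptic scaffold gene, from 14.9 ± 1.17 to 9.32 ± 0.557 FPKM (0.00149). Klf9, a direct T3 target in neurons, had FPKM of 6.78, 5.51 and 3.39 in control replicates 1 to 3 against 4.86, 5.22 and 4.98 in the CR replicates in that order. The Klf9 groups overlapped, and the log2 fold change was -0.0095 (95% interval -0.45 to 0.43, limma adjusted p = 0.976). Its sign was positive with limma-voom, with the Y-linked covariate and without control replicate 1, control replicate 2 or CR replicate 1.

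The list of hypothalamus, pituitary and TSH receptor genes had 6 of 7 members higher in CR and none lower, beside 17.7% and 16.2% of all tested genes. Tshb (control and CR means of 0 and 1.12 FPKM), Cga (0.0541 and 2.62 FPKM) and Trhr (0.311 and 0.912 FPKM) passed the filter of 0.5 FPKM only through CR. The filter thus favoured calls of these genes as higher, and the count of 6 is no support for a rise of the list. With limma-voom Tshr, named after its value was seen, passed as lower (log2 fold change -0.46), as it did with quantile normalization (-0.36) and without the trend (-0.23). The 6 became 2 without CR replicate 2, 3 without CR replicate 1, control replicate 1 or control replicate 2, 5 without control replicate 3 or CR replicate 3, and 4 with no filter or with quantile normalization. Trh, the releasing hormone gene, had FPKM of 1.79, 0.737 and 0.507 in control replicates 1 to 3 against 2.53, 3.04 and 3.33 in the CR replicates in that order (log2 fold change 1.03, limma adjusted p = 0.0114). Tshb, the TSH beta subunit gene, had no read in control and 15, 27 and 4 reads in CR replicates 1 to 3, at least 3.80-fold higher against a floor of 3 reads per control library (limma adjusted p = 0.0246). Cga, the shared alpha subunit gene, had 2 reads over the control libraries and 127 over the CR libraries, a ratio of 49.9 per assigned read (exact 95% interval 13.5 to 416, counting error only), and an adjusted p of 0.0272 by limma. For both subunit genes CR replicate 3 was far below the other CR libraries. Pcsk1, a prohormone convertase gene, rose from 0.600 ± 0.211 to 1.71 ± 0.212 FPKM (0.00491), and Trhr, the TRH receptor gene, from 0.311 ± 0.193 to 0.912 ± 0.170 FPKM (0.0222). The 9 pituitary markers, which include Tshb and Cga, summed to 2.09 to 2.77 FPKM in control and 7.46 to 10.7 FPKM in CR, with Fshb at 0 in all libraries and Prl at 0 in control. Of the 4 tested, 3 passed as higher, namely Tshb, Cga and Pomc (1.62 ± 0.0565 and 3.55 ± 0.512 FPKM, limma adjusted p = 0.00223). Of these, Tshb and Cga were tested only because of their CR values, as given above. Lhb did not pass. Pou1f1 (0.0413 and 0.0308 FPKM) and Gh1, with 42 reads in CR replicate 3, overlapped between groups. Pitx1 did not overlap, at 4 reads or fewer in control and 9 to 12 in CR. The part of pituitary or hypothalamic content in these differences was not tested. Without CR replicate 2 the adjusted p was 0.0924 for Cga, 0.0683 for Tshb and 0.0821 for Trhr, and without CR replicate 1 it was 0.0853, 0.0750 and 0.0648. Leaving out control replicate 1 gave 0.0658, 0.0565 and 0.0592, and leaving out control replicate 2 gave 0.0691, 0.0598 and 0.0618, and Tshb also missed the threshold without control replicate 3 (0.0531). With quantile normalization it was 0.0632 for Tshb and 0.0590 for Trhr, with no filter 0.0547 for Tshb and 0.0685 for Cga, and for Trhr 0.0523 with the replicate block and 0.0501 with the Y-linked covariate.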

How the data were processed

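The authors deposited 1 table of FPKM per library, with an exon length for each Ensembl gene per the file headers. The build mRatBN7.2, featureCounts 2.0.1, STAR 2.7.10a, cutadapt 1.16, Trimmomatic 0.36 and Trim Galore 0.4.4 are named, without order or settings, per the submitters' processing notes. FPKM times exon length gave whole multiples of 1 read (within 0.05 reads) for 100% of values, from which depth and limma-voom input came. Replicates differed by more than counting noise (mean chi-square per gene of 6.62 to 15.6).

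Limma 3.58.1 in R 4.3.3 modelled log2(FPKM + 1) by group alone, with a trend, two-sided, for genes whose mean FPKM reached 0.5. It was also run on simulated FPKM for 15247 genes, 200 of them changed, with a dispersion fixed at 0.01. In the right direction it called 4% of genes changed 1.25-fold, 32% changed 1.5-fold, 84% changed 2-fold and 94% changed 4-fold. These shares hold for that setting and do not describe single genes. The setting differs from the data, where limma called 5173 genes and the dispersion was not estimated for it, so the shares are not the power here. Where 2 IDs shared a symbol the higher was used. Besides the 8 members, each pathway list names the genes past the threshold, up to 5 by size of change, or 2 by p where none passed; Ttr, Klf9 and the Rxr genes are always named, and markers, Tshr and Ncor1 are named as context after their values were seen. The members and lists were chosen with earlier results of these data known. Alternatives were other pseudocounts (0.1, 0.5), filters, scalings, models, a Y-linked covariate, a replicate block and each library left out.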

Additional observations from a re-analysis of the deposited data

How the results depend on the processing

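Of 124 values of the 8 members under the alternatives, 121 kept their direction and side of the threshold, 3 kept the direction but missed it (all Thrb) and none reversed. Restricting the fit to genes averaging 2 FPKM or more, 4 of the 8 were tested and all 4 passed, beside 4801 of all 11922 genes tested in that fit. Leaving out 1 library at a time gave 3243 to 5037 genes past the threshold in place of 5173 (3243 without CR replicate 2, 3339 without CR replicate 3), 6 to 7 of the members in place of 7 and 16 to 23 of the other pathway genes in place of 25 (16 without CR replicate 2). The replicate block gave 4445 genes, 6 members and 22 pathway genes. Deviations of same-numbered libraries correlated at 0.0245, 0.0198 and 0.0454, so the numbers were not taken as pairs. Depth limits Dio3, Tshb and Cga, with 32 reads or fewer per library for Dio3. Scaling moved the median of all genes to between -0.029 and -0.017.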
